A study of Homo sapiens with 33 samples.

Results

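The 8 genes HNF4A, FOXA1, FOXA2, FOXA3, CEBPA, ONECUT1, NR1H4 and PROX1 encode transcription factors that mark the hepatocyte, the main cell of the liver. They were chosen by name, and each symbol was matched to 1 of the 78932 gene identifiers in the deposited values, of which 19179 are protein-coding. All 8 passed the filter on low values in every comparison below. The cells were HepG2, an established human hepatocellular carcinoma line, with no treatment or genetic change named in the labels. RNA was measured in 6 fractions sorted by place in the cell cycle, G1, S1, S2, S3, S4 and G2, with 2 libraries each (replicates 2 and 3), and in bulk cells with 3 libraries (replicates 1 to 3). Per the labels, sorted RNA was prepared with a stranded kit for very small amounts of total RNA, and bulk RNA with a stranded kit for mRNA. The labels call the molecule nuclear RNA throughout, while bulk RNA is described as isolated from cells. Nothing in the labels ties the replicates to separate cultures, so a p-value here reflects library-to-library spread that may be technical. All values come from 1 tumour-derived line, and the other 18 of the 33 samples (Repli-seq) were not analysed here.

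Liver cells keep their identity through a small group of transcription factors that bind each other's genes as well as those of secreted proteins and metabolic enzymes. HNF4A is a nuclear receptor at the centre of this network. The forkhead proteins FOXA1, FOXA2 and FOXA3 open closed chromatin at liver enhancers. CEBPA, a leucine-zipper protein, drives genes of mature hepatocyte metabolism. ONECUT1 (HNF6) acts in liver and bile duct development and, in mouse, activates Hnf4a and Foxa2. NR1H4 (FXR) is the receptor for bile acids, and PROX1 is a homeobox protein needed for hepatoblast migration that also acts as a corepressor of HNF4A.

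Promoters from RefSeq (GRCh38.p14, 250 bases before to 50 after a start site) were found for 6 of the 8 genes, with 2 for HNF4A. The 5 shown belong to genes with 2 promoters in the table or with another gene within 380 bases. HNF4A values sum its upstream (P2) and downstream (P1) promoters, which the deposited values do not tell apart. FOXA1, CEBPA and ONECUT1 lie close to TTC6, CEBPA-DT and LOC105370824 in the same order. Capitals mark matches to the binding motifs searched, on either strand.
HNF4A upstream, chr20:44355449-44355748, plus strand: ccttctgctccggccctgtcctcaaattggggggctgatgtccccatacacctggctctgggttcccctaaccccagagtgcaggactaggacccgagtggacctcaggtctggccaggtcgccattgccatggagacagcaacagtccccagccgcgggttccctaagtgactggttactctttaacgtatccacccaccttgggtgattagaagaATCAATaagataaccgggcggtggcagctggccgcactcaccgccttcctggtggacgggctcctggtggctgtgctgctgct
HNF4A downstream, chr20:44400989-44401288, plus strand: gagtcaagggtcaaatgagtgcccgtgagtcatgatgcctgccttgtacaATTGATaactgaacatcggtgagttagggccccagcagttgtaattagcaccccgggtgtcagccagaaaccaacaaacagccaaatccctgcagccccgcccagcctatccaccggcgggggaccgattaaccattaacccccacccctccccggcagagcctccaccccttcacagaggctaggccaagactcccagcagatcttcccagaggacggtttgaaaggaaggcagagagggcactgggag
FOXA1, chr14:37595200-37595499, minus strand: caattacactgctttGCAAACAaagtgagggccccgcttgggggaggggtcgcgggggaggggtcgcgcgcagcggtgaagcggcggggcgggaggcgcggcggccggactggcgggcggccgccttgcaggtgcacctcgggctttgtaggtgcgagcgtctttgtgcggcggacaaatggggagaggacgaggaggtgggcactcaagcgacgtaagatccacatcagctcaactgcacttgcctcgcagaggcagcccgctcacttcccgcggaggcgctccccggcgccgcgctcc
ONECUT1, chr15:52790287-52790586, minus strand: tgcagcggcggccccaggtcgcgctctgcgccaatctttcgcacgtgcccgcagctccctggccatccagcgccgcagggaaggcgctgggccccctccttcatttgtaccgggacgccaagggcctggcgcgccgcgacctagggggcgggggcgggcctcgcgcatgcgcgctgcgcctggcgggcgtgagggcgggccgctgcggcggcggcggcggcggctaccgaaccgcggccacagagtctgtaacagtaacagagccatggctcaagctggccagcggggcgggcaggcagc
CEBPA, chr19:33302485-33302784, minus strand: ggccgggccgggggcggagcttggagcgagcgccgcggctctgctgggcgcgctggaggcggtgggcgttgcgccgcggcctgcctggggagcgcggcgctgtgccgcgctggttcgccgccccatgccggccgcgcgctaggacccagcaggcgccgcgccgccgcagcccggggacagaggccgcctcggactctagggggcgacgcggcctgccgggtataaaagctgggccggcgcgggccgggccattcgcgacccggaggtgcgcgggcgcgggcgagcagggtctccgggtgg

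Each HNF4A promoter held 1 match to the ONECUT motif ATTGAT, on the minus strand (printed as ATCAAT) upstream and on the plus strand downstream. That motif occurs in 6.26% of the 35116 promoters in the table. FOXA1 held 1 match to the forkhead motif TGTTTNC, which occurs in 18% of promoters. No motif was found in the ONECUT1, FOXA3, CEBPA or NR1H4 promoter among these and the others searched, CAAAGTCC for HNF4 (1.2% of promoters), TTGCNNAA for C/EBP (10.5%) and GGTCA and TGACC with 1 base between them for NR1H4 with RXR (0.0114%). No match overlapped another. Promoter GC content was 80.7% for CEBPA, 76.3% for FOXA3, 75% for ONECUT1, 69.3% for FOXA1, 60% and 57.7% for the upstream and downstream HNF4A promoters and 41.7% for NR1H4, beside a median of 58.7% over the table.

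The files hold log2(TPM + 1), where TPM is a level corrected for gene length and scaled to the same total in every library. Of this total, 12.8% ± 1.5 belonged to protein-coding genes in sorted libraries (SD, n = 12) and 77.1% ± 0.434 in bulk libraries (SD, n = 3), so each level was also given after rescaling protein-coding genes to 1000000 per library (rescaled TPM). Reads recovered from the steps of the values came to 6131250 to 18494021 per sorted library and 22341339 to 24423890 per bulk library. Reads per library ran from 54 to 133 for FOXA3 in sorted cells and from 2065 to 7109 for HNF4A, the fewest and the most among the 8 genes. In bulk cells the fewest were 130 to 154, for ONECUT1. The 8 hepatocyte markers, ALB among them, summed to 3279 to 10369 TPM in sorted libraries and 39708 to 40674 TPM in bulk libraries. Of 11 transcription factors of other lineages, 9 stayed under 1 TPM in every sorted library. SOX9, a factor of bile duct and progenitor cells, did not: it had 38.8 to 79.6 TPM in sorted and 289.8 to 308 TPM in bulk libraries. Among 12 markers of fibroblasts, endothelium and leukocytes, LYZ had 174 to 441 TPM in sorted libraries and 1801 to 1962 TPM in bulk libraries, and no other marker exceeded 1.37 TPM. As a check of the sort, the G2/M cyclin CCNB1 averaged 12.2 TPM in G1, 60.6 TPM in S4 and 51.3 TPM in G2. Its G2 minus G1 difference of 1.83 ± 0.51 log2 units (SE) still missed the threshold by limma. Of 7 cell-cycle genes, 0 passed in the main tests among fractions given below.

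**Figure D1:**
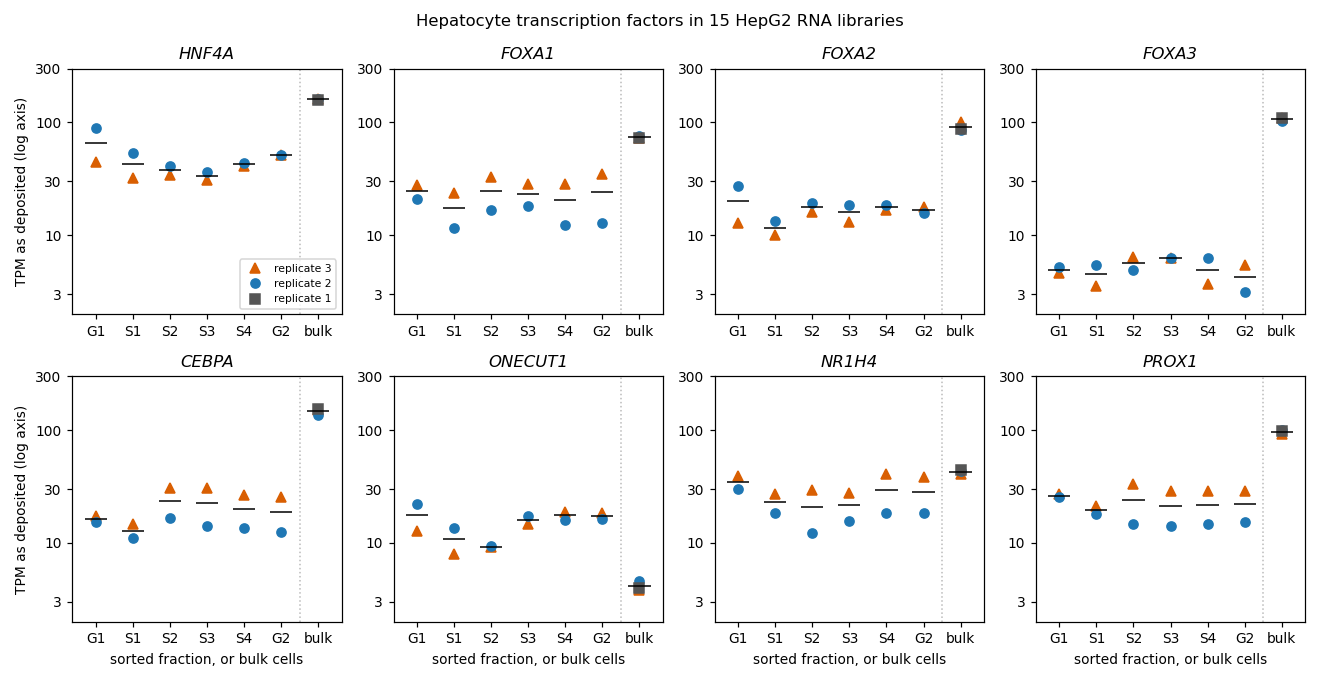
TPM on a log axis for each gene in the 6 sorted fractions (2 libraries each) and in bulk cells (3 libraries), with bars at the mean of each group. ONECUT1 is the gene whose bulk libraries lie below all sorted ones, and FOXA3 has the widest gap in the other direction.

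HNF4A had the highest level in sorted cells and FOXA3 the lowest, and the order was different in bulk cells. Mean TPM over the 12 sorted libraries was 45.7 ± 15.5 for HNF4A, 26.3 ± 9.84 for NR1H4, 22.5 ± 7.0 for PROX1, 22.4 ± 8.22 for FOXA1, 19.0 ± 7.22 for CEBPA, 16.7 ± 4.43 for FOXA2, 14.8 ± 4.36 for ONECUT1 and 5.09 ± 1.14 for FOXA3 (SD). HNF4A was highest in 11 of 12 sorted libraries. The exception was S3 replicate 3, with 30.9 TPM of CEBPA and 30.6 TPM of HNF4A. FOXA3 was lowest in 12 of 12. All neighbours in this order had overlapping ranges except ONECUT1 and FOXA3. In the 3 bulk libraries mean TPM was 161 ± 1.11 for HNF4A, 146 ± 8.72 for CEBPA, 108 ± 3.56 for FOXA3, 97.1 ± 4.13 for PROX1, 91.2 ± 8.06 for FOXA2, 73.8 ± 1.68 for FOXA1, 42.7 ± 1.53 for NR1H4 and 4.11 ± 0.388 for ONECUT1. Only PROX1 and FOXA2 had overlapping ranges there. FOXA3 thus ranked 8 of 8 in sorted and 3 of 8 in bulk libraries, and NR1H4 ranked 2 in sorted and 7 in bulk libraries. The middle ranks differed between replicate numbers: FOXA2 ranked 6 of 8 in replicate 3 (14.5 TPM) and 2 of 8 in replicate 2 (18.8 TPM), FOXA1 ranked 3 and 6, and CEBPA 5 and 7, in that order. HNF4A was first and FOXA3 last by mean in both. These orders are descriptions with no test. In libraries made from many cells, fewer cells with a transcript and less of it per cell cannot be told apart.

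The first question was whether the factors change through the cell cycle, and no member passed a test among the sorted fractions unless the replicate number was a term of the fit and genes were rescaled, when ONECUT1 did. The tests were limma with Benjamini-Hochberg adjustment over 17022 genes, and the background was as sparse: 3 genes (0.0176%) differed among any fractions, 0% between S and G1 in either direction, 1 gene (0.00587%) between G2 and G1, and 0% along S1 to S4. At an unadjusted p under 0.05 limma counted 891 genes for S against G1 and 500 for the slope, and limma's voom on the recovered reads called 0 genes in each. With 2 libraries per fraction, the members' standard errors for S against G1 ran from 0.26 to 0.46 log2 units. With the replicate number as a term of the fit they ran from 0.18 to 0.24. A p that misses the threshold does not show that levels were equal.

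HNF4A was the member with the largest difference between S and G1. Its replicates 3 and 2 had 44.3 and 88.4 TPM in G1, 31.99 and 53.5 in S1, 34.4 and 41.1 in S2, 30.6 and 36.0 in S3, 41.0 and 44.0 in S4, and 51.1 and 51.5 in G2. G1 replicate 2 stands above all other sorted libraries, and all 8 S libraries lie below the G1 library of the same number, as in 15.1% of genes. S minus G1 was -0.69 ± 0.29 on the log2(TPM + 1) scale (SE, adjusted p = 0.816), beside a median of -0.20 over all genes. Without G1 replicate 2 it was -0.20 and without G1 replicate 3 it was -1.18, so the size changed with the G1 library kept. Those 2 fits set the G1 library kept against S libraries of both numbers, with no term for the replicate number. With that term and all libraries the difference was -0.69 ± 0.20 (adjusted p = 0.316 by limma). On rescaled levels with that term it was -0.51 ± 0.12 (adjusted p = 0.0735 by limma).

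ONECUT1 had its lowest levels in early S. Its replicates 3 and 2 had 12.9 and 22.3 TPM in G1, 8.04 and 13.5 in S1, 9.17 and 9.38 in S2, 14.8 and 17.3 in S3, 18.9 and 16.1 in S4, and 18.6 and 16.3 in G2. All 4 libraries of S3 and S4 were above all 4 of S1 and S2, as in 1.72% of genes. The rescaled levels kept that separation, found in 2.77% of genes on that scale, at 129 to 143 rescaled TPM in S3 and S4 and 70.9 to 116 rescaled TPM in S1 and S2. The slope over S1 to S4 was 0.28 ± 0.10 log2(TPM + 1) units per fraction (SE), with an unadjusted p of 0.0222 and an adjusted p of 1 by limma. Same-numbered libraries deviated together in all 15 pairs of fractions (correlations of 0.308 to 0.379), although the labels name no shared culture. With the replicate number as a block the adjusted p was 0.492. With the block on rescaled levels the slope was 0.27 ± 0.05 (adjusted p = 0.034 by limma), where 1.85% of 13490 genes were called, 1.25% higher and 0.6% lower.

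The other 6 genes gave S minus G1 differences of -0.60 ± 0.43 for NR1H4, -0.33 ± 0.40 for PROX1, -0.28 ± 0.28 for FOXA2, -0.25 ± 0.46 for FOXA1, 0.08 ± 0.26 for FOXA3 and 0.16 ± 0.39 for CEBPA (log2 difference ± SE). For all 8 genes G2 minus G1 lay between -0.35 and 0.11. Among 22 tested partner liver transcription factors (such as HHEX and XBP1), 14 tested liver target genes (such as ALB and APOA1) and 9 tested bile acid genes (such as NR0B2), 0 passed in any of these 4 comparisons by limma.

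Larger differences ran along the replicate number. Replicate 3 against replicate 2, compared within fractions, gave 4 members higher and 0 lower by limma, where 25% of 17022 genes were called, 18% higher and 6.99% lower. The split between directions depended on the scaling: with median-ratio scaling 33.1% of 16993 genes were called, 16.6% higher and 16.5% lower. The same 4 members were then called higher, and HNF4A (-0.56), FOXA2 (-0.51) and ONECUT1 (-0.38, adjusted p = 0.0222) lower, by limma. FOXA1 replicate 3 libraries had 28.1, 23.5, 32.9, 28.4, 28.4 and 35.2 TPM in G1, S1, S2, S3, S4 and G2, against 20.9, 11.5, 16.6, 18.1, 12.4 and 12.9 TPM in the replicate 2 libraries. The replicate 3 values were above all replicate 2 values, a separation seen upward in 7.14% of genes. The log2 difference was 0.91 ± 0.14 (SE, adjusted p = 0.00367 by limma).

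NR1H4, CEBPA and PROX1 rose with FOXA1 in replicate 3, each higher in 6 of 6 fractions, as were 19.8% of genes. NR1H4 replicate 3 libraries ran from 27.4 to 40.7 TPM with a median of 34.0, against 12.2 to 29.8 with a median of 18.3 in replicate 2 (log2 difference 0.85 ± 0.13, adjusted p = 0.00389 by limma). CEBPA ran from 14.6 to 30.9 TPM with a median of 25.9 in replicate 3, against 11.0 to 16.7 with a median of 13.8 in replicate 2 (0.72 ± 0.15, adjusted p = 0.00943 by limma). Its difference was smallest in G1, at 0.17 log2 units, and largest in S3, at 1.09. PROX1 ran from 21.1 to 33.4 TPM with a median of 28.8 in replicate 3, against 13.99 to 25.3 with a median of 15.1 in replicate 2 (0.71 ± 0.16, adjusted p = 0.0154 by limma). The PROX1 call was lost when any 1 of the S2 or S4 libraries was left out, with adjusted p of 0.0518 to 0.0536.

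HNF4A and FOXA2 leaned the other way. HNF4A ran from 30.6 to 51.1 TPM with a median of 37.7 in replicate 3, against 36.0 to 88.4 with a median of 47.7 in replicate 2. It was lower in 6 of 6 fractions, as were 7.57% of genes, and the difference of -0.38 ± 0.15 missed the threshold (adjusted p = 0.0888 by limma). FOXA2 gave -0.34 ± 0.16 (adjusted p = 0.14 by limma). After rescaling, where 46% of 13490 genes were called, 33.7% higher and 12.3% lower, both fell: HNF4A by 0.41 ± 0.09 (adjusted p = 0.00257) and FOXA2 by 0.38 ± 0.08 (adjusted p = 0.00331), by limma. ONECUT1 gave -0.21 ± 0.16 and FOXA3 -0.06 ± 0.18, neither past the threshold on these 2 scales.

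Other genes moved with the replicate number as well. Of 14 tested target genes, 12 were called lower in replicate 3 and 0 higher, with a list median of -0.78 against 0.16 over all genes. The other 2, CPS1 (0.42) and SLC2A2 (0.37), had positive differences that were not called. The 8 hepatocyte markers, 7 of which are also targets, were all called lower. LYZ, the 1 tested gene among markers of fibroblasts, endothelium and leukocytes, fell too (-1.02, adjusted p = 3.72e-04 by limma). Of 22 tested partner factors, 5 were called higher and 3 lower, and 5 of 7 cell-cycle genes were called higher. Of all genes tested, 18% were called higher and 6.99% lower. Mitochondrial genes took a median of 3.88% of TPM in replicate 3 and 11.8% in replicate 2. Their part in the members' differences was not tested.

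**Figure D2:**
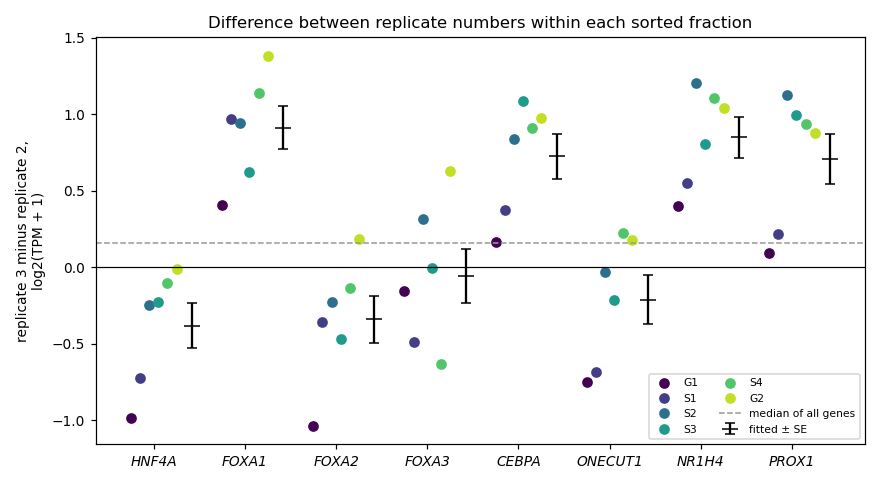
Replicate 3 minus replicate 2 in log2(TPM + 1) for each gene, with 1 point per sorted fraction and the fitted difference ± SE to its right. FOXA1, CEBPA, NR1H4 and PROX1 lie above 0 in all 6 fractions and HNF4A below 0 in all 6.

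The widest differences were between sorted and bulk libraries. The kit, the sort and any difference between nuclear RNA and RNA of whole cells cannot be told apart there. After rescaling, 4 members (ONECUT1, NR1H4, FOXA1 and HNF4A) were called higher in sorted libraries and FOXA3 lower by limma, where 71.6% of 13038 genes were called, 55.1% higher and 16.5% lower. The median difference over all genes was 0.79 log2 units, so the HNF4A and FOXA1 differences lay close to that median. The median over the 8 members was 0.58. On TPM as deposited, where 80.9% of 17174 genes were called (23.1% higher, 57.8% lower) and the median was -0.99, ONECUT1 alone was higher and the other 7 were lower. ONECUT1 upward and FOXA3 downward were the calls that held under each scaling run. CEBPA was lower under each, and was not called after the rescaling.

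ONECUT1 had a median of 125 rescaled TPM in sorted libraries (70.9 to 144), against 5.14, 5.93 and 4.93 rescaled TPM in bulk replicates 1, 2 and 3. The lowest sorted library was well above the highest bulk library, as in 46.5% of genes on this scale. On TPM as deposited it ran from 8.04 to 22.3 in sorted libraries, against 3.80 to 4.55 in bulk libraries, an upward separation found in 15.3% of genes on that scale. The log2 difference was 4.15 ± 0.15 after rescaling (SE, adjusted p = 1.05e-09) and 1.57 ± 0.18 on TPM as deposited (adjusted p = 5.28e-06), by limma. Its neighbour LOC105370824, 94 bases away in the RefSeq table, had no matched value.

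FOXA3 went the other way. It had a median of 36.9 rescaled TPM in sorted libraries (27.0 to 55.7), against 142, 135 and 142 rescaled TPM in bulk replicates 1, 2 and 3. The ranges were far apart, as in 14.6% of genes in this direction. On TPM as deposited it ran from 3.15 to 6.44 in sorted libraries, against 104 to 110 in bulk libraries, a downward separation found in 54.3% of genes. FOXA3 was lower by limma on both scales, with log2 differences of -1.81 ± 0.19 (adjusted p = 5.36e-06) after rescaling and -4.18 ± 0.18 (adjusted p = 1.09e-09) on TPM. SYMPK, whose gene lies 1179 bases away, had 7.95 to 16.1 TPM in sorted libraries and 40.0 to 46.6 TPM in bulk libraries.

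NR1H4 was higher in every sorted library after rescaling, as were 46.5% of genes. It had a median of 209.8 rescaled TPM (92.1 to 313), against 56.9, 56.0 and 53.3 rescaled TPM in bulk replicates 1, 2 and 3. The difference was 1.79 ± 0.31 (adjusted p = 2.5e-04 by limma). It turned to -0.77 ± 0.31 on TPM as deposited (adjusted p = 0.0395). HNF4A had a median of 320.8 rescaled TPM in sorted libraries (266 to 570), against 205, 209.8 and 209 rescaled TPM in bulk. These ranges were apart too, as in the same 46.5% of genes. The HNF4A difference was 0.72 ± 0.17 (adjusted p = 0.0027 by limma). It was -0.03 ± 0.23 with median-ratio scaling, where the median over all genes was 0.11, and -1.85 ± 0.20 on TPM as deposited.

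FOXA1 gave 0.78 ± 0.32 (adjusted p = 0.0454 by limma), with a median of 175 rescaled TPM in sorted libraries (98.5 to 255), against 93.4, 98.7 and 95.1 rescaled TPM in bulk. The ranges overlapped narrowly, and leaving out any 1 replicate 3 sorted library or any 1 bulk library ended the call (adjusted p of 0.0618 to 0.115). It also failed with no filter (adjusted p = 0.0537), no trend (0.0583) and voom (0.109), and median-ratio scaling gave 0.03. PROX1 gave 0.43 ± 0.28, FOXA2 0.11 ± 0.16 and CEBPA -0.43 ± 0.27, none past the threshold after rescaling. With median-ratio scaling CEBPA fell by 1.18 ± 0.22 (adjusted p = 4.88e-04 by limma), and FOXA2 fell by 0.64. Voom on the recovered reads also called CEBPA lower (-0.70, adjusted p = 0.0117).

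Because the replicate numbers differed, each was also set against bulk alone, a choice made after seeing the data. With replicate 3 the rescaled differences were 4.03 for ONECUT1, 2.22 for NR1H4, 1.24 for FOXA1, 0.52 for HNF4A and -1.85 for FOXA3. With replicate 2 they were 4.28, 1.36, 0.31, 0.93 and -1.77 for the same genes in that order. All 10 passed the threshold by limma (largest adjusted p = 0.0229), where 80.9% of 12747 genes were called with replicate 3 alone (61.8% higher, 19.1% lower) and 75.7% of 12768 with replicate 2 alone (55% higher, 20.7% lower). The medians over all genes were 0.87 with replicate 3 and 0.70 with replicate 2, above the HNF4A difference with replicate 3 and the FOXA1 difference with replicate 2. PROX1 passed with replicate 3 alone (0.78) and CEBPA with replicate 2 alone (-0.79).

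**Figure D3:**
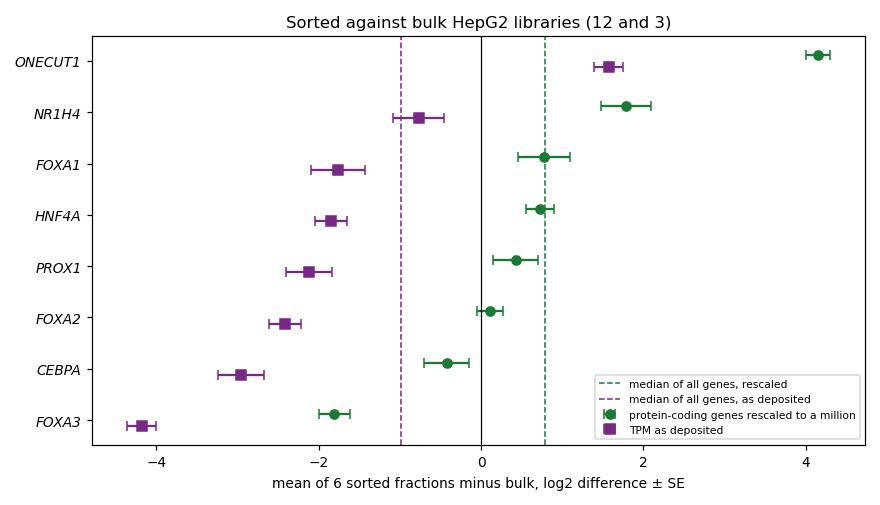
Mean of the 6 sorted fractions minus bulk in log2 units ± SE for each gene, after rescaling protein-coding genes to 1000000 (circles) and on TPM as deposited (squares), with dashed lines at the medians of all genes tested. ONECUT1 lies above 0 and FOXA3 and CEBPA below 0 on both scales, while the other 5 change side.

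The 3 forkhead genes can be set against each other within a library, where the library scaling cancels, although TPM shares still depend on gene length. FOXA3 made up 11.8% ± 3.18 of the summed FOXA TPM in sorted libraries (SD, n = 12) and 39.5% ± 1.15 in bulk libraries (SD, n = 3). FOXA1 made up 49.6% ± 11.4 in sorted and 27.1% ± 1.32 in bulk libraries. For both genes no sorted library reached the bulk range, and the two-sided exact permutation p was 0.0044, the smallest possible, or 0.0132 after adjustment over 6 share tests. This test counts the 12 sorted libraries as separate units, although they are fractions of replicates 2 and 3 alone, so its p can overstate the evidence. FOXA2 made up 38.5% ± 9.79 in sorted and 33.4% ± 1.77 in bulk libraries (exact permutation p = 0.391).

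Within the sorted libraries the FOXA1 share was 61.5, 63.2, 59.2, 59.4, 58.1 and 60.2% in G1, S1, S2, S3, S4 and G2 of replicate 3, against 38.9, 38.2, 40.8, 42.2, 33.2 and 40.8% in replicate 2. The replicate numbers did not overlap, while the fractions within a number lay close together. FOXA2 mirrored this, at 29.6% ± 2.66 in replicate 3 and 47.5% ± 3.32 in replicate 2 (SD, n = 6). For FOXA1 and FOXA2 the paired two-sided exact permutation p was 0.0312, the smallest possible with 6 fractions, and 0.0469 after adjustment. The paired tests count the 6 fractions as separate pairs. Only replicate 3 was set against replicate 2, so an offset shared by all libraries of a number is enough to give this p. FOXA3 had 10.2% ± 1.92 in replicate 3 and 13.5% ± 3.45 in replicate 2 (SD, exact permutation p = 0.0625). FOXA3 therefore stayed under 18% in every sorted library of either number.

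**Figure D4:**
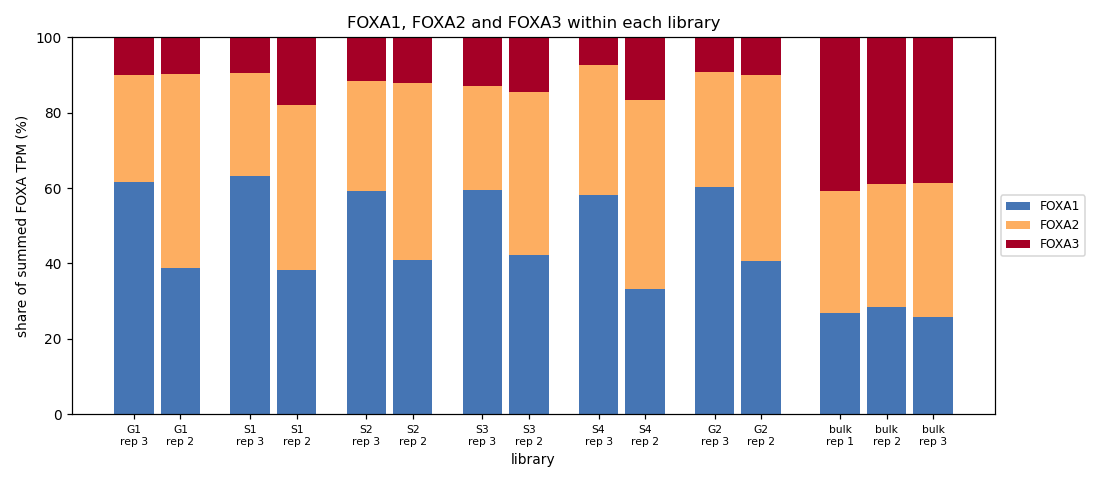
Share of the summed FOXA1, FOXA2 and FOXA3 TPM held by each gene in each of the 15 libraries. FOXA3 holds 7.5 to 17.9% in the sorted libraries and 38.7 to 40.8% in the bulk libraries, and FOXA1 differs between replicates 3 and 2 in every fraction.

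Gene length differed among the members. The lengths behind the TPM values, recovered from their steps, were 2126 bases for FOXA3, 2601 for CEBPA, 2719 for FOXA2, 3628 for NR1H4, 4414 for FOXA1, 6110 for ONECUT1, 8899 for PROX1 and 10167 for HNF4A. The 3 shortest genes had the 3 lowest rescaled differences, but the 2 longest, PROX1 and HNF4A, came next, below the shorter NR1H4, FOXA1 and ONECUT1. The part of length in these differences was not tested.

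Genes next to the members gave further values, all on TPM. TTC6, 380 bases from FOXA1, had 14.1 to 39.7 TPM in sorted and 3.19 to 3.30 TPM in bulk libraries, a log2 difference of 2.43 ± 0.34 (adjusted p = 3.11e-05 by limma), where FOXA1 itself was lower by 1.77 log2 units. LINC00261, a long noncoding RNA 2356 bases from FOXA2, had 8.97 to 28.1 TPM in sorted and 111 to 112 TPM in bulk libraries (-2.82 ± 0.25, adjusted p = 4.89e-07 by limma), and FOXA2 itself gave -2.42 ± 0.20. HNF4A-AS1 overlaps HNF4A and had 11.5 to 26.5 TPM in sorted and 15.4 to 17.1 TPM in bulk libraries. No source used here says whether counting used strand, so reads of HNF4A and its antisense partner may not be told apart. R3HDML-AS1, 457 bases from HNF4A, had 4.69 to 14.5 TPM in sorted and 3.31 to 6.65 TPM in bulk libraries (0.77 ± 0.29, adjusted p = 0.0288 by limma), where HNF4A was lower. PROX1-AS1, which overlaps PROX1, had 0.42 to 1.45 TPM in sorted and 0.845 to 1.41 TPM in bulk libraries. R3HDML, LNCNEF and MIR3646 did not exceed 1.04 TPM in any library. CEBPA-DT, 287 bases from CEBPA, had 2.09 to 8.30 TPM in sorted and 3.2 to 4.61 TPM in bulk libraries.

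The wider liver network was mixed as well. Of 24 tested partner factors, 9 were called higher and 7 lower in sorted libraries after rescaling, with a median of 0.21 against 0.79 over all genes. On this scale 55.1% of all genes tested were called higher and 16.5% lower. KLF15, a metabolic zinc-finger factor, rose by 3.37 ± 0.31, and by 0.91 on TPM as deposited. CEBPG, a leucine-zipper relative of CEBPA, fell by 0.95 ± 0.15. On TPM as deposited 1 of 22 was called higher, KLF15, and 21 lower, where 23.1% of all genes were called higher and 57.8% lower. Of 15 tested liver target genes, 3 were called higher and 4 lower after rescaling, beside 55.1% and 16.5% of all genes, with a median of -0.09. PCK1, the gluconeogenic enzyme, rose by 4.33 ± 0.38 and APOA2, an HDL protein, fell by 1.62 ± 0.29, with TPM differences of 1.75 and -4.22 in the same order. ALB gave 0.21 ± 0.42, which did not pass. APOB and F9 stayed under 1 TPM in all 15 libraries. No source used here states how reads over overlapping genes were assigned, so these values do not show that the transcripts were absent.

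Of 13 tested genes of the bile acid axis around NR1H4, 8 were higher and 1 lower in sorted libraries after rescaling, with a median of 1.69 against 0.79 over all genes. The count of 8 of 13 was close to the 55.1% of all genes called higher. CYP7A1, the rate-limiting enzyme of bile acid synthesis, had 1.57 to 3.69 TPM in sorted and 0.249 to 0.400 TPM in bulk libraries, and rose by 3.84 ± 0.30 after rescaling. NR0B2 (SHP), which NR1H4 induces and which represses CYP7A1, had 9.91 to 35.7 TPM in sorted and 361 to 421 TPM in bulk libraries, and fell by 1.77 ± 0.33. The phospholipid exporter ABCB4 rose by 2.05 ± 0.20, with -0.44 on TPM as deposited. ABCB11, the bile salt export pump, was at 0 to 0.203 TPM in sorted libraries and listed at 0 in bulk. On TPM as deposited 1 of 10 tested genes was higher and 6 were lower, where 57.8% of all genes were lower.

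Across the 12 sorted libraries the correlations between members depended on the replicate number. Pearson's r of rescaled log2 levels was 0.87 for NR1H4 with PROX1, 0.84 for FOXA1 with PROX1 and 0.83 for FOXA1 with CEBPA. After centring each replicate number these were 0.51, 0.01 and 0.43 in the same order. HNF4A with NR1H4 showed the opposite, at -0.16 over all libraries and 0.83 after centring. These values describe 12 libraries that differ in depth and fraction. Of 10269 protein-coding genes compared in the same centred way, those most like HNF4A were DGKK (0.96), AKAP9 (0.95) and KCP (0.95). Those most like ONECUT1 were PUS7, PSMG4 and POLR1A (each 0.96), and for NR1H4 they were C15orf40 (0.97), EXOC1 (0.96) and DTNB (0.96). For FOXA1 the first was ARHGEF16 (0.95), for FOXA2 AKT1S1 (0.95), for CEBPA DCXR (0.94), for FOXA3 UBOX5 and for PROX1 HINFP (0.90 each). The genes named were picked as the highest of 10269 correlations over 12 libraries, and shared regulation was not tested.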

How the data were processed

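RNA values of 12 sorted and 3 bulk HepG2 libraries were used. The deposited files hold log2(TPM + 1) for each gene, since the back-transformed log2 values sum to 1000000 in every library. Per the submitters' processing notes the build was hg38 and the tools were HISAT2, BWA, SAMtools, Trimmomatic and cutadapt, without roles or versions. No source used here names the counting program or annotation. A gene-name table gave the symbols, and RefSeq (GRCh38.p14) gave positions and promoters.

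Groups and replicate numbers came from the labels. The genes and lists were chosen with earlier results of these data known. Main tests were limma 3.58.1 (R 4.3.3) with an intensity trend on log2(value + 1), in genes with a mean of at least 1, adjusted by Benjamini-Hochberg at 0.05 over all genes. This scale understates changes of low genes. TPM was used among sorted libraries and rescaled protein-coding values (nuclear RefSeq genes matched by symbol) for sorted against bulk. The design had named TPM as the unit, and the files hold its logarithm, so the same tests were kept. Shares were tested with exact permutation tests (scipy 1.17.1). Read counts were recovered from the steps of the values for 50308 of the 50310 genes detected in 3 or more libraries. They serve as depth and in an alternative with limma's voom. It is not stated whether each stands for 1 read or a read pair. No replicates agreed within sampling noise. Chi-square per degree of freedom was 2.88 to 6.04 between bulk replicates and 34.36 to 63.05 between sorted ones, while the sorted against bulk fit used 1 spread per gene for both. Alternatives changed the pseudocount, filter, scaling, trend, unit, replicate term, fit and libraries. All 8 genes are named, with genes within 5 kb, list members and the most alike genes. List examples were picked after their values were seen. Scripts were tested on simulated data with changes of 1 and 2 log2 units. G2 against G1 recovered 0% and 1% of these, replicate 3 against replicate 2 recovered 11% and 84.7%, and sorted against bulk 56% and 100%. The simulated spread within fractions included the difference between replicate numbers, so the 11% and 84.7% may not hold for the real libraries.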

Additional observations from a re-analysis of the deposited data

How the results depend on the processing

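Counts of genes called among the fractions changed with the fit, and no member was called in any of those fits except ONECUT1 along S1 to S4. Any difference among fractions gave 0 genes with a minimum mean of 5, with voom or with rescaled protein-coding genes. S against G1 gave 4 genes with a pseudocount of 0.1, 2 with median-ratio scaling and 1 without the trend. G2 against G1 gave 0 without the filter, with a minimum mean of 5, with voom and with rescaled genes, and 106 when fitted on those groups alone. The slope gave 1 gene with a pseudocount of 0.1. Leaving out 1 library gave 0 to 2 genes in each of the first 3 comparisons and 0 for the slope.

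Same-numbered libraries deviated together, with correlations of 0.308 to 0.379 over 15 pairs of fractions, but the labels name no shared culture and there are 2 numbers. A replicate block alone gave 3, 0, 1 and 0 genes for any difference, S against G1, G2 against G1 and the slope. With rescaled genes as well it gave 173, 184, 40 and 249 genes, and the ONECUT1 slope of 0.27 ± 0.05 then had an adjusted p of 0.034 by limma, against 0.492 to 1 under the other alternatives that kept all libraries. For sorted against bulk the replicate block gave 9336 genes, and the same members were called.

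Replicate 3 against replicate 2 gave 2304 genes without the filter, 7787 with voom and 2458 to 4260 without 1 library, against 4252. FOXA1, NR1H4 and CEBPA were called in each. The FOXA3 share difference between the replicate numbers was -2.86 points in recovered reads (exact permutation p = 0.0312), against -3.35 points in TPM.

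Directions turned for uncalled members. The PROX1 slope was 0.01 and turned to -0.042 with median-ratio scaling and to -0.017 with rescaled genes, with or without the block. Among the fractions, fits without 1 library had no term for the replicate number, so their ranges also hold the difference between the numbers. Leaving out 1 library gave S against G1 differences of -0.80 to 0.24 for FOXA2. For G2 against G1 the ranges were -0.77 to 0.21 for HNF4A, -0.86 to 0.52 for FOXA1, -0.69 to 0.34 for FOXA2, -0.51 to 0.12 for FOXA3, -0.38 to 0.60 for CEBPA, -0.34 to 0.41 for ONECUT1, -0.87 to 0.17 for NR1H4 and -0.73 to 0.15 for PROX1. Slopes ranged from -0.12 to 0.10 for HNF4A, -0.12 to 0.22 for FOXA1, -0.052 to 0.14 for FOXA3, -0.069 to 0.26 for NR1H4 and -0.13 to 0.15 for PROX1. Replicate 3 against replicate 2 ranged from -0.19 to 0.059 for FOXA3.

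For sorted against bulk, median-ratio scaling gave -0.028 for HNF4A, -0.64 for FOXA2 and -0.32 for PROX1. Voom gave -0.18 for FOXA2, and replicate 3 alone gave -0.080. TPM as deposited gave -1.85 for HNF4A, -1.77 for FOXA1, -2.42 for FOXA2, -0.77 for NR1H4 and -2.12 for PROX1. The FOXA2 share difference was 5.11 points in TPM and -0.363 points in recovered reads. Scaling moved the median of all genes from -0.99 to 0.79. Depth limits FOXA3 in sorted and ONECUT1 in bulk libraries most. The causes were not tested.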
